A study of Mus musculus with 18 samples.

Results

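In all, 10 genes of the Notch pathway were followed in mouse kidney over the 14 days after an injection of folic acid. They are defined by name and role: the 4 receptors Notch1, Notch2, Notch3 and Notch4, the 4 ligands Jag1, Jag2, Dll1 and Dll4, and the 2 target genes Hes1 and Hey1. All 10 were among the 37991 gene identifiers counted in each library. Of the 9 that had enough reads to be tested, the receptor Notch2 was higher on day 3 and the ligand Dll1 was lower on day 2 than in untreated kidney, while Notch3 differed over the 6 groups. Each of these calls was lost when one or another library was left out, and the levels of the other tested members, among them Jag1 and Hes1, met no threshold on any day.

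RNA-seq was done on whole kidney of male Balb/c mice in 6 groups of 3 libraries. One group was untreated; the other 5 were taken 1, 2, 3, 7 and 14 days after a single intraperitoneal dose of 250 mg/kg folic acid in 0.3 M sodium bicarbonate, a treatment that injures the renal tubule. There was no group given bicarbonate alone, so the agent and its vehicle cannot be told apart. The labels do not say that the 3 libraries of a group came from separate animals, and p-values measure the spread between these libraries, which may be technical.

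Libraries held 8.68 M to 54.6 M reads in genes, of which 59.0 to 75.6% were mitochondrial, leaving 2.83 M to 17.2 M reads outside the mitochondrial genes; the lowest of these was replicate 2 of day 2. The markers of the tissue were present: 5 proximal tubule genes summed to 3751 ± 382.8 CPM (counts-per-million, after TMM scaling; SD, n = 3) in untreated kidney, and to means between 684 and 2037 afterwards. A set of 5 genes of injured tubule summed to 19.0 CPM untreated and to 2487 on day 1, 1299 on day 2, 751 on day 3, 352 on day 7 and 126 on day 14. The summed means for loop and distal tubule went from 1711 untreated to between 299.4 and 1769, those for collecting duct from 98.8 to between 26.6 and 84.5, those for podocytes from 121 to between 51.2 and 83.7, and those for leukocytes from 31.0 to between 17.1 and 75.5. In whole tissue, fewer cells of a type and less RNA per cell cannot be told apart.

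Notch receptors are cell-surface proteins that are switched on by Jagged and Delta-like ligands on a neighbouring cell. Binding leads to cleavage by ADAM10 and then by gamma-secretase, and the released intracellular domain enters the nucleus, where it joins RBPJ and Mastermind-like proteins at target genes such as Hes1 and Hey1. In the kidney the pathway is known for patterning the proximal nephron during development, with Notch2 as the receptor needed there; in adult tissue Notch4 and Dll4 are best known from endothelium and Notch3 from mural cells, the pericytes and smooth muscle around vessels.

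The promoters of the 3 genes that a test singled out are shown, since the nuclear complex of the pathway acts through sites in such regions. Each is the stretch of 250 bases before the RefSeq start, read on the gene's strand, in build GRCm38.p6. The letters searched on both strands were TGGGAA, the core bound by RBPJ, and CACNAG, the N box bound by HES proteins; matches are in capitals. The Notch2 window lies at chr3:98013288-98013537 on the plus strand, the Notch3 window at chr17:32166891-32167140 on the minus strand, and the first of a pair of Dll1 windows at chr17:15375824-15376073 on the minus strand.
Notch2: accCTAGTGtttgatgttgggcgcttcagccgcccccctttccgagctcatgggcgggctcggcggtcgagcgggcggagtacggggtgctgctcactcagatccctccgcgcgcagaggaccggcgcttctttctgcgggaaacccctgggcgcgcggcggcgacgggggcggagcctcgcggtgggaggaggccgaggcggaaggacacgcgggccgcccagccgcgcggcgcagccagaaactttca
Notch3: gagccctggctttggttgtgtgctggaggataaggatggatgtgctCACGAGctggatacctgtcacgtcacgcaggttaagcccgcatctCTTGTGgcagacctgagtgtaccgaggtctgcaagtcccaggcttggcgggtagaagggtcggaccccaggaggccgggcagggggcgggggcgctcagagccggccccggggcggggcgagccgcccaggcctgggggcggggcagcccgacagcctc
Dll1: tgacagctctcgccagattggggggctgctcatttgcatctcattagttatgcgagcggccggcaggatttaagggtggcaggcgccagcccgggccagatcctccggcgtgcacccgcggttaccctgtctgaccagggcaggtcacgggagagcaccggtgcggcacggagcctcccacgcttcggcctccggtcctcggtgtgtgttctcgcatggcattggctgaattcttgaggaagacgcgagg
The RBPJ core was in 0 of 9 windows of the 8 members that have one (Notch1, Notch2, Notch3, Notch4, Jag1, Jag2, Dll4 and, with a pair, Dll1). It was in 21.6% of the 32851 RefSeq windows of this length that were searched, a set that does not take in every chromosome. The target genes Hes1 and Hey1 had no window, so the member windows are those of receptors and ligands only. The N box was in 4 of the 9, those of Notch1, Notch2, Notch3 and Dll4, against 36.7% of the windows searched. The N box of Notch2 reads CTAGTG on the strand shown, and the Notch3 window held a pair, one on each strand. The bases that follow the Notch3 window were not in the transcripts of the gene annotation used for symbols, so the start of Notch3 differs between the annotations. A match is a description of these letters and not a bound site.

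Per length, Notch2 was the leading receptor gene and Jag1 the leading ligand gene of these kidneys. Divided by the length of the gene's exons in kilobases (CPM per kb), Notch2 had the highest receptor level in 17 of 18 libraries and Notch3 in the remaining one, replicate 1 of day 14. Notch2 made up 35.3 to 78.4% of the summed receptor level, with a median of 58.8%. Jag1 had the highest ligand level in 17 libraries, with 19.3 to 89.0% of the summed ligand level and a median of 68.0%; in replicate 3 of untreated kidney Dll1 was higher. The summed receptor level was 2.94 ± 0.51 CPM per kb (SD, n = 3) in untreated kidney, and its group means afterwards lay between 3.74 and 4.95. All libraries of days 1, 3, 7 and 14 lay above the untreated range of 2.442 to 3.463, day 7 only just (lowest 3.466). Those of day 2 overlapped with it. The summed ligand level was 3.74 ± 1.84 in untreated kidney, and its group means afterwards lay between 2.29 and 3.15, inside the untreated range of 1.71 to 5.30. The top of that range was replicate 3, where Dll1 made up 75.6% of the sum. These sums were not tested.

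**Figure D1:**
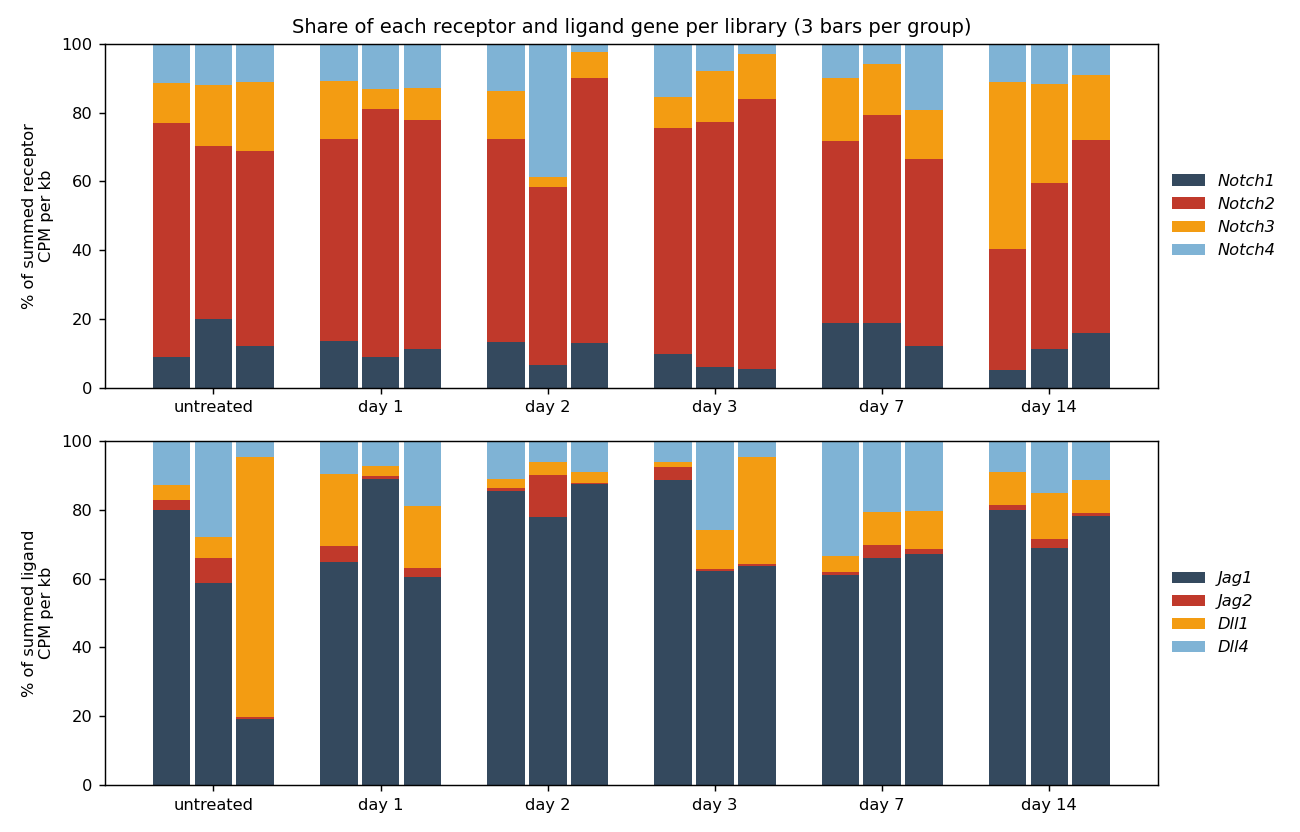
Share of each receptor (top) and ligand (bottom) in the summed CPM per kb of its role, in %, with 1 bar for each of the 3 libraries per group. Notch2 is the largest part of the receptor bars except in replicate 1 of day 14, and Jag1 of the ligand bars except in replicate 3 of untreated kidney, where Dll1 is.

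Changes over time were asked of all 16824 genes with enough reads, with edgeR's quasi-likelihood test and Benjamini-Hochberg adjustment over all of them; a gene was called at an adjusted p under 0.05. The test for any difference across the 6 groups called 1 of the 9 tested members, Notch3, where 19.7% of all tested genes were called. At an unadjusted p under 0.05 there were 3 members, Dll1, Notch2 and Notch3, where 34.7% of all tested genes were. DESeq2 called 3 members and 5365 genes in all. It took every gene with a read, Hey1 included, and applied its own filter. Its counts therefore have no share of the 16824 genes beside them. They do not tell whether members were called more or less often than other genes. Against untreated kidney, edgeR called 0 of 9 on day 1 (10.7% of all genes), 1 on day 2 (13.2%), 1 on day 3 (7.61%), 0 on day 7 (7.72%) and 0 on day 14 (1.55%). On the 3 days without an edgeR call, 2, 1 and 2 members had an unadjusted p under 0.05, where 23.9, 21.8 and 15.6% of all genes did, and DESeq2 called 1, 0 and 1, where it called 2593, 2162 and 914 genes in all. That makes 2 calls in 45 tests, which is not a larger share than that of all genes. All 5 comparisons share the same 3 untreated libraries. In 5 of the 45 tests the libraries of the day lay all above or all below the untreated ones. The share of all genes with such a separation was not counted. Separations named below, for members and for other pathway genes, are therefore descriptions and not evidence of a change.

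**Figure D2:**
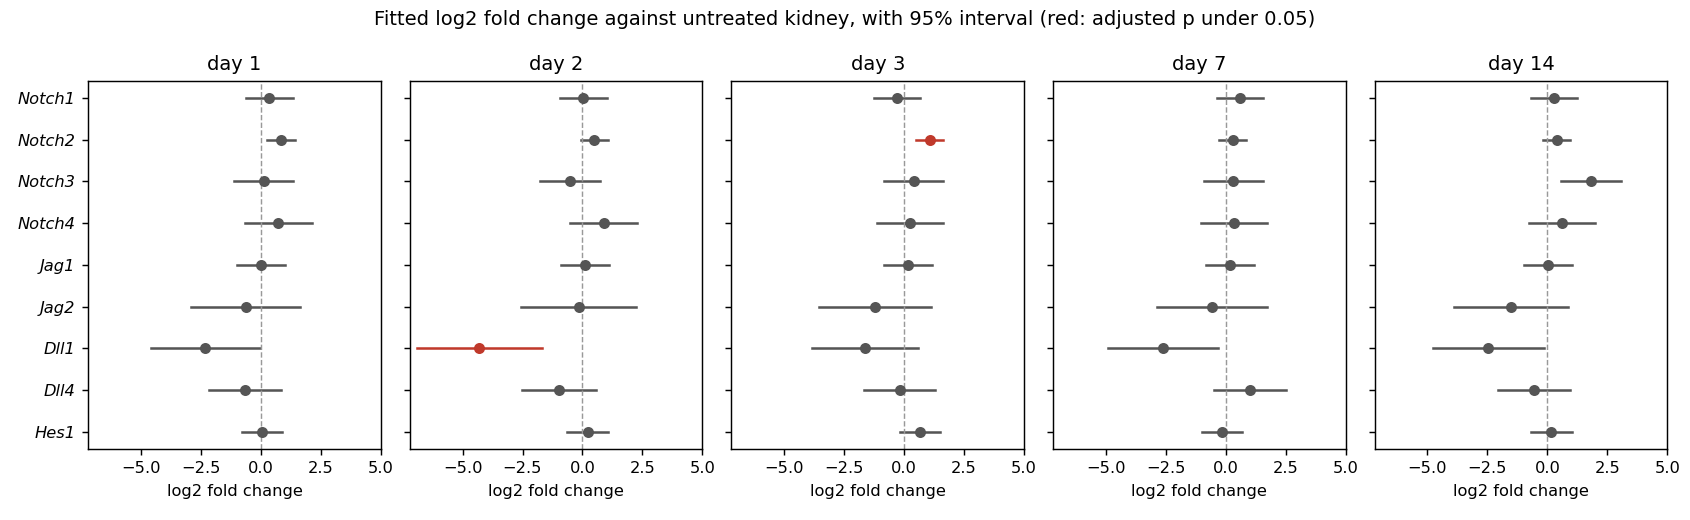
Fitted log2 fold change of each tested member against untreated kidney on each day, with its 95% interval; red marks an adjusted p under 0.05. The 2 red points are Notch2 on day 3 and Dll1 on day 2, and the intervals of Dll1 and Jag2 are the widest.

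Notch2, the receptor with the highest level, was 2.10-fold higher on day 3 than in untreated kidney. Its CPM were 21.4, 18.9 and 14.9 in the untreated libraries, 34.3, 32.4 and 31.8 on day 1, and 24.7, 19.1 and 33.6 on day 2. They were 27, 48.5 and 40.1 on day 3, 22.7, 24.7 and 20.3 on day 7, and 23.6, 21.0 and 27.7 on day 14. All libraries of days 1 and 3 were above all untreated libraries, whereas those of days 2, 7 and 14 overlapped with them. On day 3 the log2 fold change was 1.07 (SE 0.27, adjusted p = 0.0223 by edgeR). On day 1 it was 0.84 (SE 0.27, adjusted p = 0.0565), and DESeq2 put that day's adjusted p at 0.0349. On days 2, 7 and 14 the fitted log2 fold changes were 0.49, 0.30 and 0.39. In order of mean CPM the groups ran untreated (18.4 ± 3.3), day 7 (22.6 ± 2.2), day 14 (24.1 ± 3.4), day 2 (25.8 ± 7.3), day 1 (32.8 ± 1.3) and day 3 (38.5 ± 10.8; SD, n = 3 each), and the libraries of each neighbouring pair in that order overlapped.

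The day 3 call of Notch2 held in 7 of 13 alternatives. It was lost without any 1 of the untreated replicates (log2 fold changes 1.17, 1.07 and 0.92 without replicates 1, 2 and 3), without replicate 2 of day 3 (0.87, adjusted p = 0.115), without replicate 3 of day 3 (1.03, adjusted p = 0.0592) and when only the 6 libraries compared were fitted (adjusted p = 0.0572); its log2 fold change stayed between 0.87 and 1.65 in all 13.

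Notch3, best known from mural cells, had its highest values on day 14. Its CPM were 2.72, 4.92 and 3.95 untreated, 7.44, 1.98 and 3.32 on day 1, and 4.44, 0.845 and 2.46 on day 2. They were 2.75, 7.58 and 5.06 on day 3, 5.85, 4.53 and 3.99 on day 7, and 24.5, 9.45 and 7.05 on day 14. The day 14 libraries were all above the untreated ones, and replicate 1 stood well above the other two. Over the 6 groups the adjusted p was 0.04998, just under the threshold, and it was called in 7 of 24 alternatives, with adjusted p between 0.00447 and 0.398. It was lost without any 1 of 15 of the 18 libraries, at an adjusted p of 0.398 without replicate 1 of day 14 and of 0.0505 to 0.0818 without the others. Between day 14 and untreated kidney alone the log2 fold change was 1.82 (SE 0.60, 95% interval 0.55 to 3.08), with an adjusted p of 0.132 by edgeR and 0.0415 by DESeq2; without replicate 1 of day 14 it was 1.08 (adjusted p = 0.456). On the other days the fitted log2 fold change lay between -0.52 and 0.40.

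The 9 markers of mural cells and fibroblasts, among them Pdgfrb, Acta2 and Col1a1, are given beside Notch3. Their sum was 63.7 to 76.4 CPM untreated, 67.6 to 98.8 on day 1, 52.6 to 101 on day 2, 90.6 to 276 on day 3, 123 to 195 on day 7 and 122 to 229 on day 14. On day 14, 1 of the 9 was called higher and 0 lower; on days 1, 2, 3 and 7 there were 1, 2, 1 and 3 higher and 1, 2, 0 and 0 lower. Notch3 was 18.7% of that sum in replicate 1 of day 14, and 7.76 and 3.09% in the other two, against 3.56 to 7.73% in untreated kidney. Within day 14, the library with the highest marker sum was replicate 3, and over all libraries it was replicate 2 of day 3, at a Notch3 level of 7.58 CPM. The part of these cells in the Notch3 values was not tested.

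Notch4, best known from endothelium, did not pass the test on any day, while endothelial markers were lower early. Its CPM were 2.66, 3.35 and 2.19 untreated, 4.77, 4.36 and 4.59 on day 1, and 4.28, 10.7 and 0.807 on day 2. They were 4.71, 3.98 and 1.13 on day 3, 3.19, 1.82 and 5.34 on day 7, and 5.51, 3.81 and 3.34 on day 14. The day 1 libraries were all above the untreated ones and close to each other, and those of every other day overlapped with the untreated ones. On day 1 the log2 fold change was 0.73 (SE 0.66, adjusted p = 0.554). On day 2 it was 0.88, and -0.11 without replicate 2 of that day. Over the 5 days the 95% intervals ran from -1.13 to 2.29.

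The 9 endothelial markers, among them Pecam1, Cdh5 and Kdr, summed to 91.6 to 181 CPM untreated. The sum was 57.3 to 61.8 CPM on day 1, 22.9 to 37.9 on day 2, 33.2 to 47.8 on day 3, 64.6 to 93.1 on day 7 and 85.5 to 127 on day 14. Of the 9, 3, 5, 5, 1 and 0 were called lower on days 1, 2, 3, 7 and 14, and 0 higher on any of them. Set against that sum, a ratio chosen after the values were seen, Notch4 was 1.72 to 2.91% in the untreated libraries, 7.07 to 8.31% on day 1, 2.13 to 28.8% on day 2, 2.59 to 14.2% on day 3, 1.95 to 7.27% on day 7 and 3.00 to 5.86% on day 14. The libraries of days 1 and 14 lay above the untreated ones, and those of days 2, 3 and 7 overlapped with them. The part of these cells in the Notch4 values was not tested.

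**Figure D3:**
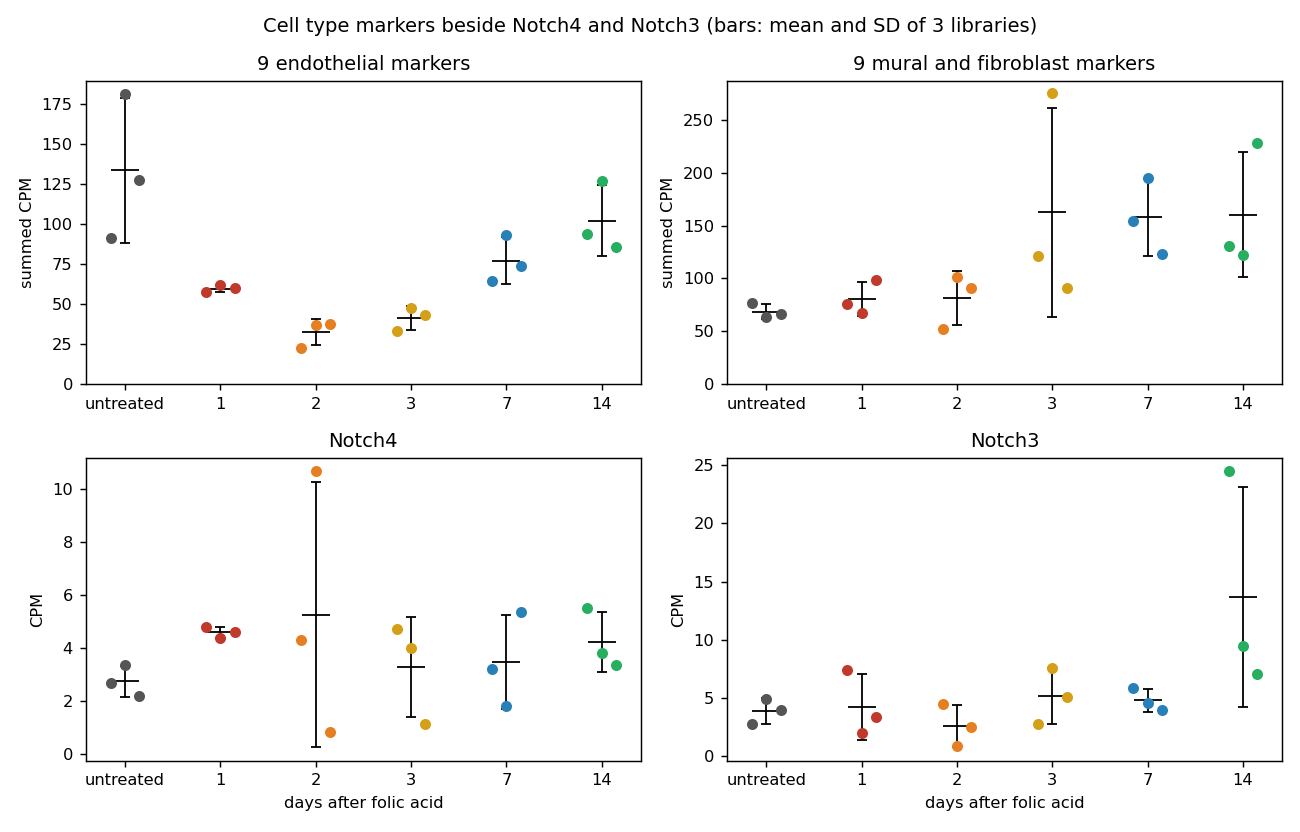
Summed CPM of 9 endothelial and 9 mural and fibroblast markers (top) and CPM of Notch4 and Notch3 (bottom) in every library; bars are the mean and SD of 3 libraries. The endothelial sum was lowest on day 2, at 22.9 to 37.9, and on that day Notch4 ran from 0.807 to 10.7, overlapping with its untreated values. On day 1 Notch4 lay between 4.36 and 4.77, above its untreated values. The highest Notch3 value was 24.5, in replicate 1 of day 14.

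Notch1, the most widely used receptor in other tissues, showed no call. Its CPM were 3.64, 9.82 and 4.26 untreated, 10.5, 5.26 and 7.12 on day 1, 7.36, 3.21 and 7.42 on day 2, 5.34, 5.49 and 3.67 on day 3, 10.6, 10.2 and 6.04 on day 7, and 4.55, 6.53 and 10.5 on day 14. Untreated replicate 2 lay among the higher values, and all groups overlapped with the untreated one. Without that replicate the fitted log2 fold change was 0.95 on day 1 and 1.18 on day 7, with no call. With it, the values ran from -0.30 on day 3 to 0.59 on day 7. The 95% intervals over the 5 days ran from -1.27 to 1.56. With 3 libraries a group, a change inside the interval of its day was not excluded.

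Jag1, the ligand with the highest level, showed no call, and its untreated mean rested on 1 library. Its CPM were 19.6, 5.85 and 5.95 untreated, 7.57, 16.8 and 6.90 on day 1, 13.6, 9.80 and 10.1 on day 2, 11.7, 11.6 and 11.9 on day 3, 17.1, 10.9 and 7.08 on day 7, and 8.89, 7.66 and 15.7 on day 14. Group means lay between 10.4 and 11.7 CPM, but single libraries ranged from 5.85 to 19.6; untreated replicate 1 was the highest of all, and the 3 of day 3 were the closest together. The log2 fold changes against untreated kidney were at most 0.17, with 95% intervals from -1.005 to 1.17 over the 5 days. Without untreated replicate 1 they were 0.82, 0.91, 0.97, 0.98 and 0.86 on days 1, 2, 3, 7 and 14, still with no call. The adjusted p of the test over the 6 groups was 0.998, and 0.576 without that library.

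Dll1, a Delta-like ligand, was called lower on day 2, and that call rested on 1 untreated library. Its CPM were 0.761, 0.452 and 16.9 untreated, the last from 270 reads in replicate 3, where the other two had 14 and 19. They were 1.75, 0.382 and 1.49 on day 1, 0.306, 0.338 and 0.269 on day 2 (15, 2 and 7 reads), and 0.133, 1.52 and 4.198 on day 3. They were 0.954, 1.14 and 0.833 on day 7 and 0.781, 1.10 and 1.39 on day 14. The 3 day 2 values were below all untreated ones, the lowest of which was 0.452, and every other group overlapped with them.

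The fitted log2 fold change of Dll1 on day 2 was -4.31 (SE 1.25, adjusted p = 0.027 by edgeR), and without untreated replicate 3 it was -1.01 (adjusted p = 0.59). The call was also lost without any 1 of the day 2 replicates (log2 fold changes -4.34, -4.36 and -4.22 without replicates 1, 2 and 3; adjusted p between 0.0718 and 0.0865) and with a replicate block (-3.44, adjusted p = 0.0783); it held in 7 of 12 alternatives. On days 1, 3, 7 and 14 the log2 fold change was -2.32, -1.61, -2.62 and -2.46 with no call, and without untreated replicate 3 it was 0.99, 1.68, 0.69 and 0.84, in the other direction.

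Dll4, a Delta-like ligand best known from endothelium, met no threshold. Its CPM were 2.066, 1.83 and 0.940 untreated, 0.744, 0.900 and 1.41 on day 1, 1.16, 0.507 and 0.692 on day 2, 0.531, 3.18 and 0.577 on day 3, 6.15, 2.25 and 1.42 on day 7, and 0.651, 1.10 and 1.51 on day 14. Replicate 1 of day 7 was the highest and replicate 2 of day 3 the next, and all groups overlapped with the untreated one. The log2 fold change was -0.98 (SE 0.73) on day 2 and 1.02 (SE 0.71) on day 7, with adjusted p of 0.424 and 0.449. Without replicate 1 of day 7 the day 7 value was 0.18, and the adjusted p over the 6 groups went from 0.221 to 0.727. Against the endothelial marker sum given above, Dll4 was 0.736 to 2.26% in untreated libraries, 1.37 to 5.08% on day 2 and 1.94 to 9.52% on day 7, again with overlap.

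Jag2, the second Jagged ligand, was near the limit of detection, with 1 to 37 reads per library and 0.038 to 1.86 CPM. The highest of these CPM was in replicate 2 of day 2, from 11 reads in the library with the fewest non-mitochondrial reads. The log2 fold changes ran from -1.51 to -0.16, with SE between 1.09 and 1.14, and none was called; the day 2 value was -0.16, and -2.87 without that library.

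**Figure D4:**
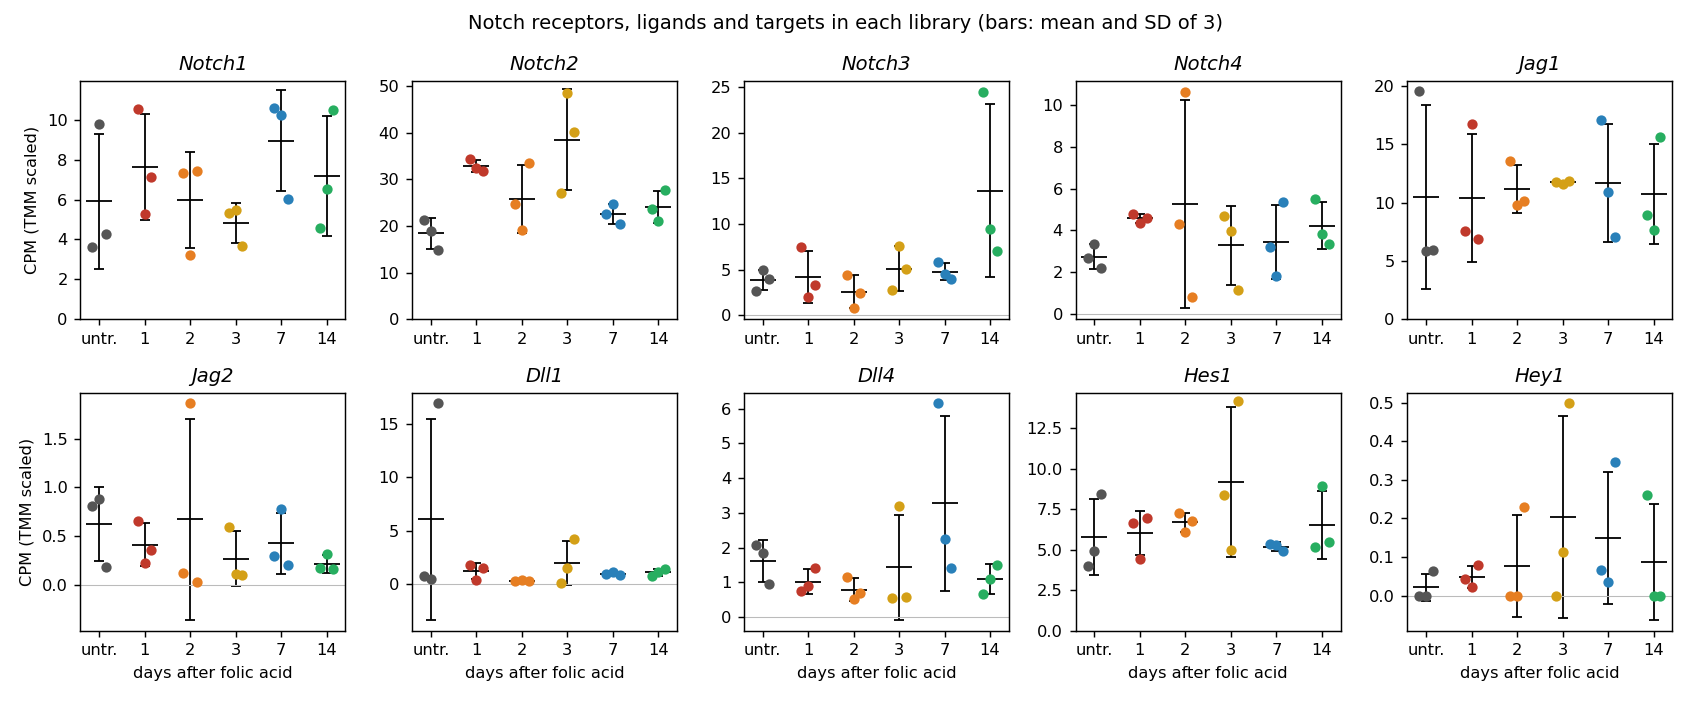
TMM-scaled CPM of the 10 members in each of the 18 libraries, by days after folic acid; points are libraries and bars the mean and SD of 3. Notch2 lies above its untreated values on days 1 and 3, Jag1 has group means between 10.4 and 11.7, and single libraries stand apart for Dll1 (16.9, untreated) and Notch3 (24.5, day 14).

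Of the 2 target genes, Hes1, a transcriptional repressor that Notch signalling turns on, showed no call. Its CPM were 4.02, 4.92 and 8.46 untreated, 6.65, 4.45 and 6.98 on day 1, 7.24, 6.08 and 6.77 on day 2, 8.36, 5.001 and 14.1 on day 3, 5.36, 5.31 and 4.89 on day 7, and 5.16, 8.92 and 5.46 on day 14. Replicate 3 of day 3 was the highest, and all groups overlapped with the untreated one. The log2 fold change was largest on day 3, at 0.66 (SE 0.40, adjusted p = 0.357), and lay between 0.21 and 1.24 in its 13 alternatives. Without replicate 3 of day 3 the edgeR adjusted p over the 6 groups was 0.944, against 0.568 with it. The 95% intervals over the 5 days ran from -1.002 to 1.51. Hey1, a related repressor, was too low for the main test, with 54 reads in all 18 libraries together. It had 0 reads in 7 libraries and at most 19, in replicate 3 of day 3. Over the 6 groups it was tested in 18 alternatives and called in 0. Its adjusted p there lay between 0.407 and 0.858 by edgeR or DESeq2.

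Between successive times edgeR called 0 of 36 member tests. The share of all genes called was 0.0594% from day 1 to day 2, 0.25% from day 2 to day 3, 0.0178% from day 3 to day 7 and 0.0178% from day 7 to day 14, so a call was rare for any gene. At an unadjusted p under 0.05 there were 0, 2, 1 and 2 members in these comparisons, beside 13.4, 15.5, 10.1 and 9.44% of all genes, and DESeq2 called 0 in each. The members in question were Dll1 and Notch2 from day 2 to day 3, Notch2 from day 3 to day 7, with a log2 fold change of -0.77, and Dll4 and Notch3 from day 7 to day 14. From day 7 to day 14 the log2 fold change of Notch3 was 1.51 (adjusted p = 0.422).

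Further genes of the pathway were tested in the same way. Of 44 further pathway genes, 38 were tested, and against untreated kidney 2 were called higher on day 1, 1 on day 2 and 0 on days 3, 7 and 14, with 0 called lower on any day, where 10.7, 13.2, 7.61, 7.72 and 1.55% of all genes were called. Of the 38, 5, 3, 3, 4 and 6 had an unadjusted p under 0.05 on days 1, 2, 3, 7 and 14, beside 23.9, 26.9, 22.3, 21.8 and 15.6% of all genes. DESeq2, with its own filter, called 2, 1, 1, 2 and 2 of the 44, beside 2593, 2995, 2172, 2162 and 914 genes in all. Here too no share stands beside the DESeq2 counts. At the median of the 38 the log2 fold change was 0.04, 0.21, 0.23, 0.40 and 0.15 on days 1, 2, 3, 7 and 14, beside 0.05, 0.03, 0.07, 0.06 and 0.04 for all genes. By role, the calls were 1 among the 8 genes of shedding and gamma-secretase, 1 among the 5 sugar transferases, 1 among the 7 genes of trafficking, and 0 each among the 10 genes of the nuclear complex and the 8 tested of 10 further targets and feedback genes; 0 of the 4 other ligands had enough reads.

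On day 1, the protease gene Adam10, whose product makes the first cut in a bound receptor, was at 35.2, 44.0 and 44.6 CPM, against 21.7, 26.2 and 24.6 in untreated kidney. All day 1 libraries were above all untreated ones, at a log2 fold change of 0.77 (SE 0.24, adjusted p = 0.0474). Poglut1, which adds glucose to the extracellular repeats of the receptor, was at 24.9, 14.2 and 12.6 CPM on day 1, against 5.60, 10.7 and 5.45. Its groups did not overlap either, at a log2 fold change of 1.24 (SE 0.39, adjusted p = 0.0469). Both calls lay close to the threshold: Adam10 kept its call in 1 of 13 alternatives and Poglut1 in 4, with log2 fold changes of 0.69 to 0.92 and 0.87 to 1.64. Each was lost without any 1 of most libraries (for Poglut1, untreated replicates 1 and 3 and day 1 replicates 1 and 2; for Adam10, all 6).

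On day 2, Neurl1b, a ubiquitin ligase that acts on ligands, was at 8.42, 10.7 and 57.9 CPM, against 4.62, 4.85 and 5.20 in untreated kidney. Replicate 3 of day 2 stood apart: the log2 fold change was 2.40 (SE 0.66, adjusted p = 0.0207), and 0.95 without it (adjusted p = 0.298), and the call was also lost without any 1 of the untreated replicates (2.35, 2.38 and 2.43).

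Over the 6 groups together, 2 of the 38 were called, Hey2 (adjusted p = 0.0159) and Maml2 (adjusted p = 0.0182), both named after their values were seen. Maml2, a Mastermind-like coactivator, was at 6.85, 5.56 and 7.20 CPM untreated and at 18.9, 10.1 and 18.1 on day 7, and was called in 22 of 24 alternatives; without replicate 1 or 3 of day 7 the adjusted p was 0.0662 and 0.0607. Its day 7 libraries were all above the untreated ones, although that comparison alone had an adjusted p of 0.102 (log2 fold change 1.26, SE 0.46). The day 14 libraries (8.89, 12.9 and 9.46 CPM) were also all above the untreated ones. Those of day 2 (4.67, 2.37 and 5.50 CPM) were all below, and those of days 1 and 3 overlapped. Hey2, a sister of Hey1, owed its call to replicate 2 of day 14, at 25.95 CPM where the other 17 libraries were between 0 and 1.75; without that library its adjusted p was 0.536, and with a replicate block it was 0.1.

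The genes whose log2 CPM followed a member most closely over the 18 libraries are given as a description, for the 4 members with the smallest p over the 6 groups, by Pearson's r among some 7738 genes at 5 CPM or more. For Notch2 they were Carmil1 (r = 0.887), Man2b2 (0.833) and Lgals1 (0.802), and for Notch3 they were Map4k2 (0.878), Nedd9 (0.808) and Pid1 (0.760). For Dll1 they were Tor1b (0.755), Cnbp (0.738) and Fitm2 (0.737), and for Dll4 Slc2a4 (0.806), Arnt (0.788) and Galt (0.752). The points share library depth and the 6 groups, and the likeness to Dll1 and Dll4 involves members with few reads.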

How the data were processed

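Total RNA of frozen whole kidney was made into libraries from 10 ng each with NuGEN SPIA reagents, which amplify the sample, per the labels' protocols. Per the submitters' processing notes, cutadapt, TopHat2 2.07, HTSeq, DESeq and build NCBIM37 were used; their order, settings and strandedness are not given in the sources used here. The authors deposited, for each of 18 libraries, raw counts per gene and normalised values (a signal, equal to the deposited count divided by 1 size factor per library, between 0.218 and 1.97, as checked on the files). Tests took the raw counts. A set of 5 tallies of reads in no gene were left out; reads aligned to several places came to 18.4 to 28.5% of reads. Symbols were matched by Ensembl ID to 32919 of 37991 identifiers through a later annotation (GENCODE M21), so no gene coordinates are given. Exons of Notch1 and Dll4 overlap those of antisense genes in the table (0610009E02Rik, Gm13568 and Gm14207). Where strand was not used, reads in these shared stretches may have gone to the tally of ambiguous reads or to either gene. That tally held 1.01 to 1.47% of reads. Dll1 and Notch3 overlap antisense genes, and Notch2 a gene on its own strand, that are not in the table. Reads of the gene that overlaps Notch2 may therefore be counted in Notch2. Where strand was not used, the same holds for Dll1 and Notch3.

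Counts were fitted with edgeR 4.0.16 in R 4.3.3 (TMM scaling, filterByExpr over the 6 groups, quasi-likelihood tests on group alone, Benjamini-Hochberg over 16824 genes). Each SE is the size of the log2 fold change divided by the square root of the test's F value. It is an approximation and not a standard error given by the fit. The 95% intervals use this SE and the fit's degrees of freedom. Tables and figures were made with Python 3.11.15. The test was also run on counts simulated from each gene's mean level and the spread that edgeR estimated for it. Since that run follows edgeR's own model, it is a check of the code and not of any call. Alternatives were other scalings, no filter, DESeq2 1.42.0, a replicate block, no mitochondrial genes, only the groups compared, and each library left out. The members, the list of 44 pathway genes and the marker lists were chosen with earlier results of these data known. Beside the members, the text names every pathway gene called against untreated kidney and, per member, the 3 genes most like it among the 4 members with the smallest p over the 6 groups; of the marker lists, genes are named as examples without values. A gene of the pathway list is not reported here. Replicate numbers did not pair the libraries: libraries of the same number had deviations that correlated at -0.0543 to 0.0416. No 2 libraries of a group agreed within sampling noise.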

Additional observations from a re-analysis of the deposited data

How the results depend on the processing

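Of 1047 alternative log2 fold changes of the members, 942 kept direction and side of the threshold, 92 were values without a call that changed sign, 11 lost a call, 2 gained one and 0 of the called ones changed direction. Over the 6 groups, 1 member was called in the main test, 2 with library totals alone or with no low-count filter, 3 with DESeq2, 0 with a replicate block, 0 without mitochondrial genes, and 0 to 2 with 1 library left out. The members called were 1 with DESeq2 on day 1 and 1 on day 14, against 0; on day 2 they were 0 with the replicate block, 0 when only the libraries compared were fitted (Dll1 then missed the low-count filter) and 0 to 1 with 1 library left out; on day 3 they were 0 in that smaller fit and 0 to 1 with 1 library left out. The replicate block changed no other count of members; since replicate numbers did not pair the libraries, the block is an alternative only. The cause of these differences was not tested, except that leaving libraries out leaves fewer to test.

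Of all genes, DESeq2 called 5365 over the 6 groups, 2172 on day 3, 2162 on day 7 and 914 on day 14, and between successive times 511, 722, 218 and 149. With no low-count filter 480 were called on day 14, and 248, 388, 48 and 32 between successive times. Fitting only the libraries compared gave 1186 on day 2, 71 on day 14 and 0 in each of the 4 successive comparisons. The block gave 2 from day 1 to day 2 and 1 from day 7 to day 14. With 1 library left out the counts were 1164 to 1379 on day 1, 1453 to 2005 on day 2, 614 to 1046 on day 3, 607 to 1014 on day 7, 106 to 351 on day 14, and 1 to 158, 14 to 272, 0 to 2 and 0 to 56 between successive times.

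Library totals alone raised the median log2 fold change of all genes by 0.14, 0.25, 0.58, 0.67 and 0.32 on days 1, 2, 3, 7 and 14, and by 0.11, 0.32, 0.10 and -0.35 between successive times. Calls were then 2238 on day 3 (2042 higher and 196 lower, against 703 and 577), 2565 on day 7 (2390 and 175, against 651 and 647), 435 on day 14 (417 and 18, against 208 and 52), 166 from day 2 to day 3 and 0 from day 3 to day 7; on days 1 and 2 the split was 885 and 672 against 857 and 935, and 1450 and 651 against 1210 and 1006. Of the pathway list, 3 genes were then called on day 3 and 8 on day 7, against 0. Of the tested members, depth limits Jag2, Dll1 and Dll4 most, since they had as few as 1, 2 and 3 reads in a library. Hey1 did not pass the low-count filter of the main fit.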
